A study of Homo sapiens with 15 samples.

Results

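The endoplasmic reticulum (ER) unfolded protein response set described here held 32 genes. They were chosen by name: 4 stress sensors and transcription factors, 11 chaperones and cochaperones, 6 genes of disulfide bond formation and exchange, 9 genes of ER-associated degradation and 2 genes of translocation and export. Of the 32 genes, 31 were found by symbol and ERO1B was found by its Ensembl identifier. All 32 were among the 12998 genes of the P493-6 MYCi975 table and the 13703 genes of the P493-6 tetracycline table. In the PC3 table of 13751 genes 31 were present, and DERL3 was not. The tables list a gene when its value was above 1 read per 1000000 counted reads (CPM) in at least 2 of 6 libraries. The 3 tables together held 16109 genes, and no further filter on low values was applied to the members.

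The study measured messenger RNA in 2 established human cell lines after 24 h of treatment, with 3 libraries in each of 5 groups. PC3 is a prostate cancer line with MYC from its own gene. PC3 cells received 8 µM MYCi975, a small molecule made as an inhibitor of MYC, against control PC3 cells given the solvent DMSO. P493-6 is a human B cell line, labelled as Burkitt lymphoma with c-MYC overexpression, in which a transgene carries MYC under a promoter that tetracycline switches off. P493-6 cells received 6 µM MYCi975, also dissolved in DMSO, or tetracycline at 0.1 µg/ml dissolved in water, against 1 shared set of control P493-6 cells given DMSO. The tetracycline group therefore differed from its control in solvent as well. All cells grew in RPMI with 10% serum, and each line stands for itself only. Nothing in the labels tells whether the 3 libraries of each group were grown as separate cultures. The p-values therefore reflect library-to-library spread alone, and that spread may be technical.

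Proteins that enter the ER are folded there by chaperones led by BiP, the product of HSPA5, and by enzymes that form and rearrange disulfide bonds. When unfolded proteins collect, 3 membrane sensors, encoded by ERN1 (IRE1), ATF6 and EIF2AK3 (PERK), signal to the nucleus. IRE1 splices XBP1 messenger RNA into the form that encodes an active transcription factor. Cleaved ATF6 and spliced XBP1 raise chaperone and degradation genes, while PERK slows translation and favours ATF4. Proteins that fail to fold are drawn out to the cytosol and degraded by a machinery built around the ubiquitin ligase SYVN1 (HRD1). In cells of the B lineage the XBP1 branch is known for its role in antibody secretion. The gene counts used here do not separate spliced from unspliced XBP1.

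Depth was 8162582 to 15926008 counted reads per library, lowest in the tetracycline group (8162582 to 9895173) and highest in the PC3 groups. Libraries of a group correlated with Pearson r of 0.994 to 0.997 over 15 pairs. MYC, which checks the labels, had a mean of 149 CPM with tetracycline against 4728 CPM in P493-6 controls, a log2 fold change of -4.98 ± 0.04 (SE, adjusted p = 2.76e-49). MYC messenger RNA was slightly higher with MYCi975 than in control cells, by 0.30 in PC3 and 0.11 in P493-6. All 6 B cell markers examined (MS4A1, CD79A, CD79B, PAX5, CD22 and CD74) were listed in P493-6. In PC3 all 5 epithelial markers (KRT8, KRT18, KRT19, EPCAM and CDH1) were listed and CD74 was the only B cell marker, at 1.25 to 4.27 CPM.

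With MYCi975, PC3 cells had higher levels of 24 of the 31 listed members and lower levels of none. The background in that comparison was 29% of genes called higher and 30.1% called lower. The sensor ERN1, the degradation scaffold HERPUD1, the cochaperone DNAJB9, the chaperone HSPA5 and the transcription factor XBP1 rose most, with log2 fold changes of 1.32 to 2.33. In P493-6 cells MYCi975 gave a smaller and mixed picture, with 16 of 32 members higher and 4 lower, where 10.6% of all genes were called higher and 18% lower. Tetracycline gave another pattern: 17 of 32 members were lower and 8 higher, where 41.9% of all genes were called lower and 36.2% higher. With tetracycline 10 of 11 chaperones and cochaperones were called lower, of which DNAJC3 lost its call in some settings. Of the 6 genes of disulfide formation and exchange, 4 were called lower and 1 higher. A call throughout means an adjusted p below 0.05 over all genes of the comparison.

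The median log2 fold change of the members was 0.36 in PC3 with MYCi975, where that of all genes was -0.00. It was 0.12 in P493-6 with MYCi975, where that of all genes was -0.04. It was -0.22 with tetracycline, where that of all genes was -0.05. Fold changes are on the scale of log2(CPM + 1), which understates those of low genes. In PC3 the 2 groups did not overlap for 25 members (80.6%), where 61.9% of all genes did not. In P493-6 with MYCi975 this held for 23 members (71.9%), where the share over all genes was 40%. With tetracycline it held for 25 members (78.1%), a share near the 78.4% of all genes. Scaling the libraries by TMM moved the split in P493-6 with MYCi975 to 18 members higher and 1 lower, and that of all genes to 1819 higher and 1690 lower in place of 1375 and 2338. Values are shares of a library in bulk RNA, so fewer cells of a kind and less RNA per cell cannot be told apart, and total RNA per cell was not measured.

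**Figure D1:**
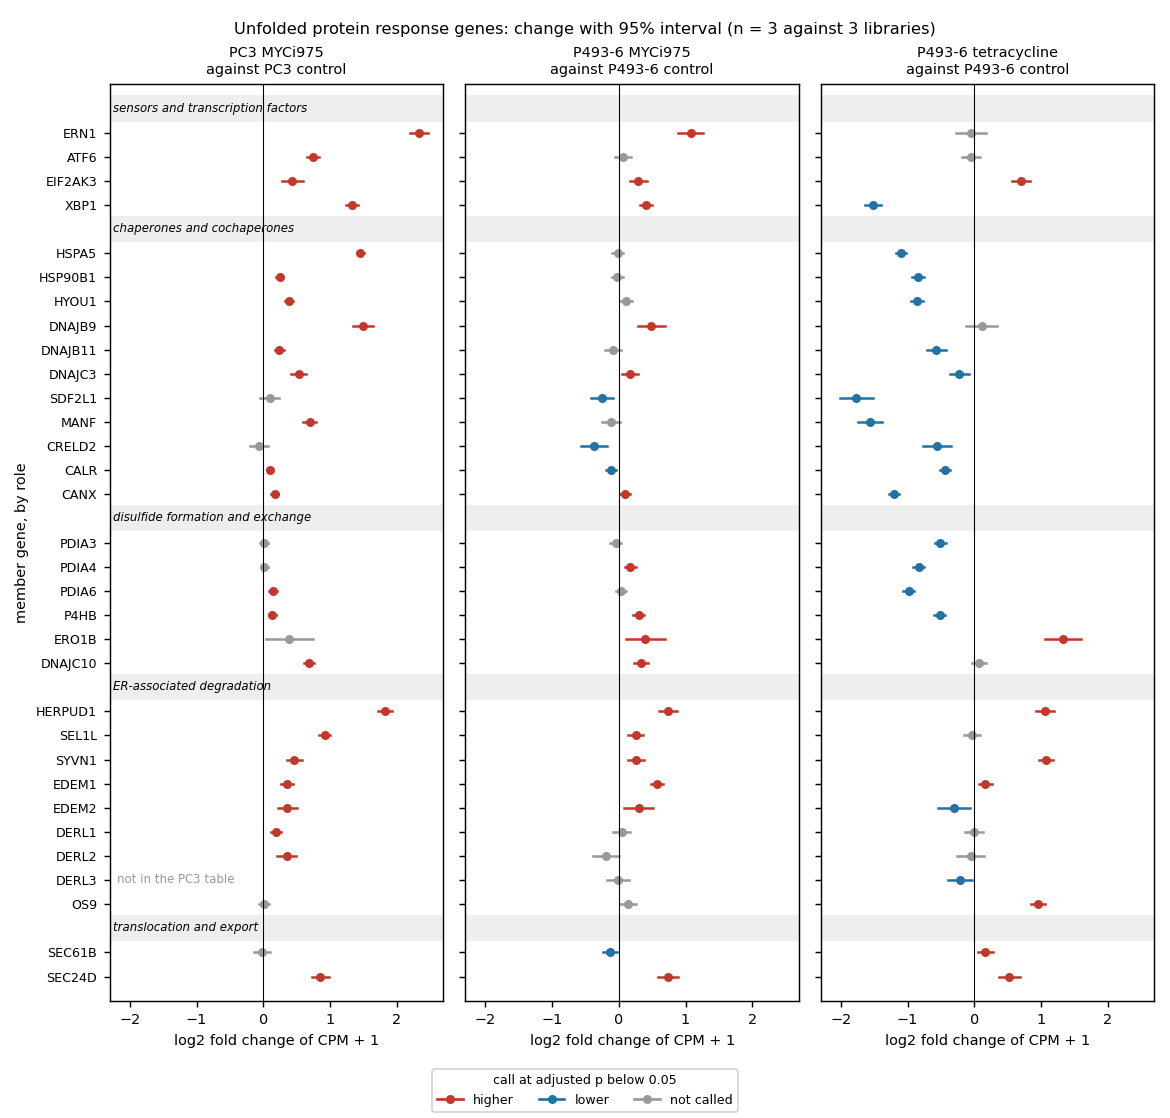
Log2 fold change of CPM + 1 (horizontal axis) with its 95% interval for each member (vertical axis, by role), in 3 panels: MYCi975 in PC3, MYCi975 in P493-6, and tetracycline in P493-6, each against its control with 3 libraries a group. Red marks the 24, 16 and 8 members called higher, blue the 0, 4 and 17 called lower, and grey the rest.

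All 4 sensors and transcription factors were higher in PC3 with MYCi975. ERN1, the kinase and ribonuclease that splices XBP1, had 73.2, 69.99 and 67.4 CPM in PC3 with MYCi975, against 13.6, 13.3 and 12.4 CPM in PC3 controls. The lowest treated library was several times above the highest control library, with a log2 fold change of 2.33 ± 0.07 (SE, adjusted p = 1.29e-51). In P493-6, ERN1 had 30.96, 31.6 and 38.7 CPM with MYCi975, 14.7, 16.3 and 13.7 CPM with tetracycline and 16.7, 14.9 and 14.7 CPM in controls. The MYCi975 libraries lay above all the others, with a log2 fold change of 1.08 ± 0.09 (SE, adjusted p = 1.21e-12). The tetracycline libraries overlapped those of the controls, with a log2 fold change of -0.05 and a 95% interval of -0.27 to 0.17.

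XBP1 had 165, 151 and 155 CPM in PC3 with MYCi975, against 66.4, 58.3 and 62.1 CPM in PC3 controls, a log2 fold change of 1.32 ± 0.05 (SE, adjusted p = 1.49e-43). In P493-6 XBP1 had 248, 243 and 233 CPM with MYCi975, 69.8, 59.3 and 59.9 CPM with tetracycline and 179, 186 and 180.2 CPM in controls. The 3 P493-6 groups stood apart from each other, with MYCi975 above and tetracycline below the controls. The log2 fold change against control was 0.41 ± 0.04 (SE, adjusted p = 3.7e-10) with MYCi975 and -1.52 ± 0.06 (SE, adjusted p = 4.1e-25) with tetracycline. XBP1 was thus the member of this role with called changes in opposite directions under the 2 agents in P493-6.

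ATF6, the sensor that is cut in the Golgi to release a transcription factor, had 108, 112 and 105 CPM in PC3 with MYCi975, against 64.7, 63.1 and 64.7 CPM in PC3 controls. These groups did not overlap, and the log2 fold change was 0.74 ± 0.05 (SE, adjusted p = 4.12e-27). The P493-6 values were 54.6, 57.3 and 59.1 CPM with MYCi975, 54.3, 51.2 and 52.3 CPM with tetracycline and 56.7, 54.9 and 52.1 CPM in controls. Those groups overlapped, and the 95% intervals against control were -0.06 to 0.19 with MYCi975 and -0.18 to 0.08 with tetracycline.

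EIF2AK3, which encodes PERK, had 25.8, 26.6 and 28.4 CPM in PC3 with MYCi975, against 17.5, 21.03 and 20.6 CPM in PC3 controls, a log2 fold change of 0.43 ± 0.08 (SE, adjusted p = 8.67e-07). P493-6 libraries had 55.1, 57.5 and 57.3 CPM with MYCi975, 73.3, 78.3 and 74.7 CPM with tetracycline and 48.5, 43.4 and 46.3 CPM in controls. All treated libraries lay above their controls, and the tetracycline libraries were the highest. The log2 fold change was 0.29 ± 0.06 (SE) with MYCi975 and 0.70 ± 0.06 (SE) with tetracycline, with adjusted p of 0.000352 and 9.85e-13.

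**Figure D2:**
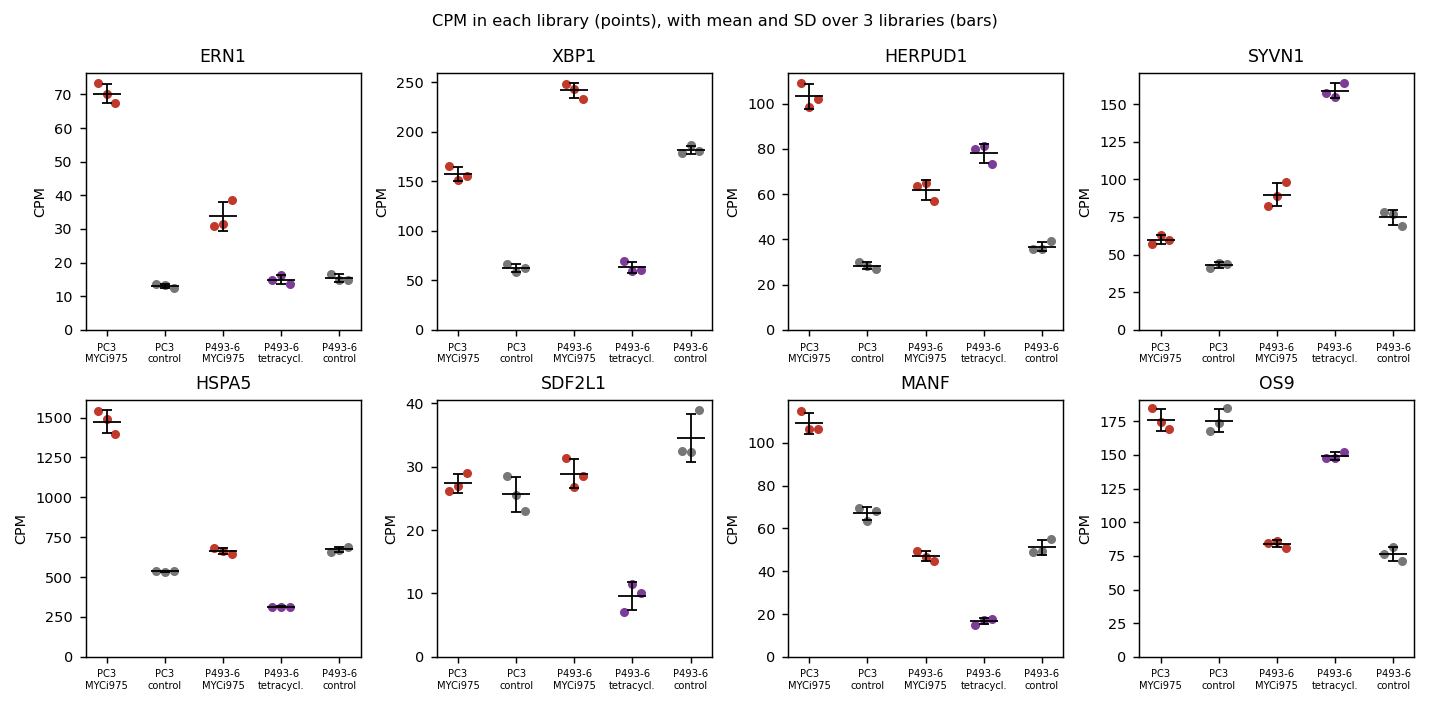
CPM (vertical axis, from 0) in each library (points), with the mean and SD of 3 libraries (bars), for 8 members in the 5 groups (horizontal axis: PC3 MYCi975, PC3 control, P493-6 MYCi975, P493-6 tetracycline and P493-6 control). HSPA5 is highest in PC3 with MYCi975, at 1475 ± 72.2 CPM, and SYVN1 is highest with tetracycline, at 159 ± 4.84 CPM.

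Of the 11 chaperones and cochaperones, 9 were higher and none was lower in PC3 with MYCi975. In P493-6, 3 were higher and 3 lower with MYCi975, while with tetracycline none was higher and 10 were lower. HSPA5, the main ER chaperone, had 1538, 1490.0 and 1396 CPM in PC3 with MYCi975, against 539, 535 and 535 CPM in PC3 controls. The treated PC3 libraries were all far above the controls (2.75 times the mean), with a log2 fold change of 1.46 ± 0.03 (SE, adjusted p = 1.4e-61). In P493-6 the values were 684, 666 and 644 CPM with MYCi975, 315, 311 and 314 CPM with tetracycline and 659.7, 669 and 692 CPM in controls. The MYCi975 and control libraries of P493-6 interleaved, and the 95% interval of their log2 difference was -0.10 to 0.06. The tetracycline libraries lay below all others, with a log2 fold change of -1.10 ± 0.04 (SE, adjusted p = 2.74e-26).

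The promoter of HSPA5 is shown because the gene moved in opposite directions in these 2 settings. The bases from the RefSeq table (GRCh38.p14, the 250 bases before the annotated start) run 5′ to 3′ on the gene's strand. The capitals mark the letters of an ER stress element, a known site for ATF6 and XBP1 together with the CCAAT-binding factor NF-Y.
HSPA5 (chr9:125241344-125241593, minus strand): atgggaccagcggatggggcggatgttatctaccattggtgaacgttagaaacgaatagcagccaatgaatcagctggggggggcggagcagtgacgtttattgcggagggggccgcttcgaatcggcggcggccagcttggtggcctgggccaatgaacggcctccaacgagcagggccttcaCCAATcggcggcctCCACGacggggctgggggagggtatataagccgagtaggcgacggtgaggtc

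HSP90B1 encodes the ER form of the HSP90 chaperone. It had 1889.8, 1902 and 1765 CPM in PC3 with MYCi975, against 1505, 1609 and 1564 CPM in PC3 controls, groups that did not overlap (log2 fold change 0.25 ± 0.03 (SE, adjusted p = 7.12e-13)). In P493-6 it had 693, 686 and 754 CPM with MYCi975, 393, 399 and 413 CPM with tetracycline and 775, 712 and 678 CPM in controls. MYCi975 and control libraries overlapped in P493-6. With tetracycline the log2 fold change was -0.84 ± 0.04 (SE, adjusted p = 7.74e-21).

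HYOU1 encodes a nucleotide exchange factor of BiP. It had 442, 428 and 429.9 CPM in PC3 with MYCi975, against 334, 335 and 324 CPM in PC3 controls, a log2 fold change of 0.39 ± 0.03 (SE, adjusted p = 2.26e-20). In P493-6 HYOU1 had 198, 204 and 191 CPM with MYCi975, 99.3, 102 and 99.8 CPM with tetracycline and 179, 181 and 189 CPM in controls. The MYCi975 libraries of P493-6 all lay above their controls by a small margin, with a log2 fold change of 0.11 ± 0.04 (SE, adjusted p = 0.0561) that missed the threshold. That difference passed under TMM scaling, edgeR and DESeq2. The tetracycline libraries were far below both, with a log2 fold change of -0.86 ± 0.05 (SE, adjusted p = 2.19e-19).

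The J-domain cochaperones of BiP did not move alike. DNAJB9, which also holds IRE1 inactive, had 40.8, 39.95 and 38.7 CPM in PC3 with MYCi975, against 14.3, 14.1 and 12.3 CPM in PC3 controls (log2 fold change 1.49 ± 0.08 (SE, adjusted p = 1.09e-32)). P493-6 libraries had 18.5, 17.5 and 19.5 CPM with MYCi975, 13.2, 13.2 and 15.7 CPM with tetracycline and 12.8, 12.6 and 13.3 CPM in controls. MYCi975 libraries were above controls in both lines, with 0.49 ± 0.10 (SE, adjusted p = 0.000183) in P493-6, while tetracycline and control libraries overlapped. In the main fit DNAJB9 was the only chaperone or cochaperone of the set not called lower with tetracycline, with a 95% interval of -0.12 to 0.34. The tetracycline call of DNAJC3 was lost in some settings.

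DNAJB11 had 239, 242 and 243 CPM in PC3 with MYCi975, against 199.7, 209 and 205 CPM in PC3 controls, a log2 fold change of 0.24 ± 0.03 (SE, adjusted p = 4.09e-09). Its values in P493-6 were 60.6, 58.7 and 59.4 CPM with MYCi975, 43.5, 40.4 and 43.6 CPM with tetracycline and 66.6, 57.6 and 66.6 CPM in controls. The tetracycline libraries lay below the rest, with a log2 fold change of -0.57 ± 0.07 (SE, adjusted p = 1.67e-09), and the MYCi975 and control libraries overlapped.

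DNAJC3, which also restrains PERK, had 66.6, 65.3 and 63.3 CPM in PC3 with MYCi975, against 43.5, 46.02 and 44.9 CPM in PC3 controls, a log2 fold change of 0.53 ± 0.05 (SE, adjusted p = 6.28e-15). In P493-6 it had 62.4, 63.7 and 66.8 CPM with MYCi975, 49.4, 44.7 and 53.3 CPM with tetracycline and 56.8, 57.6 and 57.5 CPM in controls. Both P493-6 differences were small, 0.16 ± 0.06 (SE, adjusted p = 0.0319) with MYCi975 and -0.22 ± 0.07 (SE, adjusted p = 0.00372) with tetracycline, and neither group overlapped the controls. The MYCi975 call was lost when any library other than MYCi975 library 1 was left out (0.14 to 0.17), and the tetracycline call was lost under TMM scaling, edgeR and DESeq2.

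SDF2L1, a partner of DNAJB11, and MANF, a BiP-binding protein that is also secreted, had the largest falls of the set with tetracycline. SDF2L1 had 26.1, 26.99 and 29.1 CPM in PC3 with MYCi975, against 28.4, 25.4 and 23 CPM in PC3 controls, overlapping groups with a 95% interval of -0.05 to 0.24. In P493-6 SDF2L1 had 31.4, 26.8 and 28.5 CPM with MYCi975, 7.12, 11.5 and 10 CPM with tetracycline and 32.4, 32.3 and 38.9 CPM in controls. The tetracycline libraries lay well below the controls, with a log2 fold change of -1.77 ± 0.12 (SE, adjusted p = 2.44e-14). The smaller fall with MYCi975 in P493-6, -0.25 ± 0.08 (SE, adjusted p = 0.0188), was not called under TMM scaling, edgeR or DESeq2, nor without P493-6 control library 3 (-0.16) or MYCi975 library 2 (-0.20).

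MANF had 115, 106 and 106 CPM in PC3 with MYCi975, against 69.6, 63.5 and 68.01 CPM in PC3 controls, a log2 fold change of 0.69 ± 0.05 (SE, adjusted p = 8.51e-25). P493-6 libraries had 49.4, 46.7 and 44.9 CPM with MYCi975, 14.9, 17.3 and 17.9 CPM with tetracycline and 48.95, 49.3 and 55.2 CPM in controls. The gene was thus higher with MYCi975 in PC3 and lower with tetracycline in P493-6, where the log2 fold change was -1.56 ± 0.09 (SE, adjusted p = 1.76e-19). MYCi975 and control libraries overlapped in P493-6, with a 95% interval of -0.25 to 0.01.

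CRELD2, a cysteine-rich ER protein induced by ER stress, had 32.3, 31.5 and 29.6 CPM in PC3 with MYCi975, against 35.6, 32 and 30.4 CPM in PC3 controls. These overlapped, with a 95% interval of -0.20 to 0.07. Its values in P493-6 were 16.2, 15.7 and 14.8 CPM with MYCi975, 14.7, 13.1 and 12.6 CPM with tetracycline and 18.7, 21.1 and 21.2 CPM in controls. Both treated groups lay below the controls, by -0.37 ± 0.10 (SE, adjusted p = 0.00297) with MYCi975 and -0.56 ± 0.11 (SE, adjusted p = 9.32e-06) with tetracycline. Of the 4 members called lower with MYCi975 in P493-6, this was the 1 called under every alternative setting.

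The lectin chaperones calreticulin and calnexin bind glycoproteins that still carry a terminal glucose. CALR, which encodes calreticulin, had 4209, 3948 and 4061 CPM in PC3 with MYCi975, against 3786, 3738 and 3886 CPM in PC3 controls. In P493-6 it had 1290.4, 1222 and 1227 CPM with MYCi975, 990.0, 1004 and 1006 CPM with tetracycline and 1312, 1396 and 1364 CPM in controls. CALR was the single member called higher with MYCi975 in PC3 (0.10 ± 0.02 SE) and lower with MYCi975 in P493-6 (-0.12 ± 0.04 SE), with adjusted p of 3.57e-05 and 0.00895. The P493-6 call was lost under TMM scaling, edgeR and DESeq2, and without control library 2 (-0.10) or MYCi975 library 2 (-0.11). With tetracycline the log2 fold change was -0.44 ± 0.04 (SE, adjusted p = 1.71e-14).

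CANX had 789, 792 and 777 CPM in PC3 with MYCi975, against 695, 699.5 and 702 CPM in PC3 controls, a log2 fold change of 0.17 ± 0.03 (SE, adjusted p = 4.7e-08). In P493-6 CANX had 909.7, 905 and 924 CPM with MYCi975, 369.7, 370.0 and 372 CPM with tetracycline and 862, 859 and 839.6 CPM in controls. The tetracycline libraries lay far below every control library, with a log2 fold change of -1.20 ± 0.04 (SE, adjusted p = 4.77e-28). The rise with MYCi975 in P493-6, 0.10 ± 0.04 (SE, adjusted p = 0.0396), was lost when any 1 of the 6 libraries was left out (0.09 to 0.10).

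Among the 6 genes of disulfide formation and exchange, 3 were higher in PC3 with MYCi975, 4 were higher in P493-6 with MYCi975, and 4 were lower and 1 higher with tetracycline. The 4 lower with tetracycline were the protein disulfide isomerases PDIA3, PDIA4, PDIA6 and P4HB. PDIA3, which works with calnexin and calreticulin, had 569, 559 and 564 CPM in PC3 with MYCi975, against 558, 566 and 556 CPM in PC3 controls. P493-6 libraries had 318, 320.5 and 319 CPM with MYCi975, 233, 227 and 234 CPM with tetracycline and 337, 328 and 323 CPM in controls. The tetracycline libraries lay below the others, with a log2 fold change of -0.51 ± 0.04 (SE, adjusted p = 2.15e-14).

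PDIA4 had 867, 842 and 832 CPM in PC3 with MYCi975, against 833, 844 and 839 CPM in PC3 controls, overlapping groups with a 95% interval of -0.04 to 0.07. Its values in P493-6 were 378, 372 and 391 CPM with MYCi975, 179, 196 and 190.4 CPM with tetracycline and 339, 338 and 333 CPM in controls. Against the controls the log2 fold change was 0.17 ± 0.04 (SE, adjusted p = 0.000617) with MYCi975 and -0.84 ± 0.04 (SE, adjusted p = 1.54e-20) with tetracycline, without overlap in either case.

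PDIA6, which also acts on the sensors' own disulfide bonds, had 581, 579 and 556 CPM in PC3 with MYCi975, against 522, 508 and 517 CPM in PC3 controls. In P493-6 it had 341, 339.7 and 333 CPM with MYCi975, 173, 161 and 166 CPM with tetracycline and 327, 331 and 333 CPM in controls. It rose slightly in PC3 (0.15 ± 0.03 (SE, adjusted p = 4.85e-06)) and fell with tetracycline (-0.98 ± 0.04 (SE, adjusted p = 5.65e-23)). With MYCi975 in P493-6 its 95% interval was -0.05 to 0.11.

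P4HB, the archetypal protein disulfide isomerase, had 881, 847 and 863 CPM in PC3 with MYCi975, against 779, 779.7 and 796 CPM in PC3 controls, a log2 fold change of 0.14 ± 0.03 (SE, adjusted p = 4.66e-06). In P493-6 P4HB had 435, 423 and 439.8 CPM with MYCi975, 245, 244 and 247 CPM with tetracycline and 355, 358 and 343 CPM in controls. As for XBP1, the 3 P493-6 groups stood apart, with MYCi975 above (0.30 ± 0.04 (SE, adjusted p = 8.14e-08)) and tetracycline below (-0.52 ± 0.04 (SE, adjusted p = 7.22e-15)) the controls.

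ERO1B, an oxidase that recharges protein disulfide isomerase, went the other way with tetracycline. P493-6 libraries had 5.65, 7.70 and 7.69 CPM with MYCi975, 14.9, 12.6 and 14.96 CPM with tetracycline and 4.65, 5.24 and 5.22 CPM in controls. The tetracycline libraries were above all others, with a log2 fold change of 1.33 ± 0.13 (SE, adjusted p = 1.37e-11). The MYCi975 libraries were above the controls by a narrow margin, 0.40 ± 0.15 (SE, adjusted p = 0.0358), a call lost under DESeq2 and when any library other than MYCi975 library 1 was left out (0.33 to 0.42). In PC3 the gene was at the edge of the table, with 1.99, 1.98 and 2.05 CPM with MYCi975, against 1.82, 1.17 and 0.987 CPM in controls, and was not called (0.39 ± 0.18 (SE, adjusted p = 0.0519)). It was called there without PC3 control library 1, at 0.54, and under TMM scaling.

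DNAJC10, a reductase that prepares proteins for degradation, had 235, 236 and 236 CPM in PC3 with MYCi975, against 146, 146 and 146 CPM in PC3 controls (log2 fold change 0.69 ± 0.04 (SE, adjusted p = 3.57e-32)). Its values in P493-6 were 143, 148 and 149 CPM with MYCi975, 119, 123 and 122 CPM with tetracycline and 124, 116 and 109 CPM in controls. MYCi975 libraries were above controls in both lines, with 0.33 ± 0.05 (SE, adjusted p = 6.8e-07) in P493-6. Tetracycline and control libraries overlapped, with a log2 fold change of 0.07 that was not called, but that was called higher under TMM scaling, edgeR and DESeq2.

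ER-associated degradation genes included rises under all 3 treatments. Of 8 listed in PC3, 7 were higher with MYCi975 and none was lower. Of 9 listed in P493-6, 5 were higher and none lower with MYCi975, and 4 were higher and 2 lower with tetracycline. The 4 of 9 higher with tetracycline is near the 36.2% of all genes called higher there. HERPUD1, which recruits partners to the SYVN1 ligase and is itself short-lived, had 109, 98.5 and 102 CPM in PC3 with MYCi975, against 29.9, 28.3 and 27.1 CPM in PC3 controls. In P493-6 it had 63.8, 64.7 and 57.01 CPM with MYCi975, 79.9, 81.2 and 73.4 CPM with tetracycline and 35.6, 35.8 and 39.2 CPM in controls. Every treated library lay above every control library of its line. The log2 fold change was 1.83 ± 0.05 (SE, adjusted p = 2.01e-50) in PC3, 0.73 ± 0.07 (SE, adjusted p = 8.22e-12) in P493-6 with MYCi975 and 1.06 ± 0.07 (SE, adjusted p = 1.29e-17) with tetracycline.

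The 250 bases before the HERPUD1 start (RefSeq, GRCh38.p14) are shown because this gene rose in all 3 comparisons while HSPA5 did not. The capitals mark the shorter ER stress element, ERSE-II, for which this gene is the known example.
HERPUD1 (chr16:56931892-56932141, plus strand): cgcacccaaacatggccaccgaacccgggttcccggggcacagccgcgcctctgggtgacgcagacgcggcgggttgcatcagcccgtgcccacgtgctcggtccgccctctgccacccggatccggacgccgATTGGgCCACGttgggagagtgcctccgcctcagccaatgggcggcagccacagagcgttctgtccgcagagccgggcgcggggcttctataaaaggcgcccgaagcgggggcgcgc

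SEL1L, the adaptor of SYVN1, had 167, 169 and 164 CPM in PC3 with MYCi975, against 87.7, 87.7 and 87.9 CPM in PC3 controls, a log2 fold change of 0.92 ± 0.04 (SE, adjusted p = 1.73e-37). In P493-6 SEL1L had 100.3, 108 and 97.7 CPM with MYCi975, 81.6, 83.9 and 85.6 CPM with tetracycline and 81.9, 84.6 and 90.5 CPM in controls. The rise with MYCi975 was seen in both lines (0.25 ± 0.05 (SE, adjusted p = 0.000304) in P493-6), and tetracycline libraries overlapped their controls.

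SYVN1, the ubiquitin ligase at the centre of this machinery, had 56.8, 63.1 and 59.8 CPM in PC3 with MYCi975, against 41, 44.2 and 44.02 CPM in PC3 controls, a log2 fold change of 0.47 ± 0.06 (SE, adjusted p = 5.29e-12). P493-6 libraries had 82.6, 88.6 and 97.9 CPM with MYCi975, 157, 155 and 164 CPM with tetracycline and 78.3, 76.97 and 69.3 CPM in controls. The tetracycline libraries were far above the controls (2.12 times the mean, 1.08 ± 0.05 (SE, adjusted p = 6.46e-21)), and the MYCi975 libraries lay between, 0.26 ± 0.06 (SE, adjusted p = 0.000712). SYVN1 and SEL1L, whose proteins act as a complex, therefore had unlike values with tetracycline.

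EDEM1 and EDEM2 trim mannose from glycoproteins that are to be degraded. EDEM1 had 103, 104 and 106 CPM in PC3 with MYCi975, against 84.7, 76.3 and 82.7 CPM in PC3 controls, a log2 fold change of 0.36 ± 0.05 (SE, adjusted p = 4.08e-11). Its values in P493-6 were 261, 257 and 259 CPM with MYCi975, 188, 189.8 and 208 CPM with tetracycline and 181, 177 and 164 CPM in controls. The MYCi975 libraries of P493-6 were the highest of the 15, with 0.57 ± 0.04 (SE, adjusted p = 5.48e-14) against control, and tetracycline gave 0.16 ± 0.05 (SE, adjusted p = 0.0023).

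EDEM2 had 32.5, 29.5 and 34.3 CPM in PC3 with MYCi975, against 25.1, 25.6 and 23.6 CPM in PC3 controls, a log2 fold change of 0.36 ± 0.07 (SE, adjusted p = 7.17e-06). In P493-6 it had 20.01, 16.5 and 18.6 CPM with MYCi975, 12.3, 11.6 and 11.2 CPM with tetracycline and 12.6, 17.4 and 14.5 CPM in controls. The MYCi975 libraries overlapped the controls, and both P493-6 calls (0.30 ± 0.11 (SE, adjusted p = 0.0304) with MYCi975 and -0.31 ± 0.12 (SE, adjusted p = 0.0194) with tetracycline) depended on single libraries. The MYCi975 call was lost without control library 1 (0.19), control library 3 (0.29), MYCi975 library 1 (0.24) or MYCi975 library 3 (0.29), and under DESeq2. The tetracycline call was lost without control library 2 (-0.19) or tetracycline library 3 (-0.28), and under TMM scaling and DESeq2.

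The derlins are membrane proteins of the exit channel. DERL1 had 137, 136 and 141 CPM in PC3 with MYCi975, against 119, 123 and 121 CPM in PC3 controls (0.19 ± 0.04 (SE, adjusted p = 1.95e-05)). DERL2 had 31.5, 31.9 and 31.4 CPM in PC3 with MYCi975, against 26.2, 22.8 and 24.7 CPM in PC3 controls (0.35 ± 0.07 (SE, adjusted p = 1.01e-05)). Both were above their controls in PC3 without overlap, and neither was called in P493-6. In P493-6 DERL1 ranged from 52.5 to 57.1 CPM over all 9 libraries. There DERL2 had 17.4, 15.5 and 16.9 CPM with MYCi975, against 19.8, 19.6 and 18.1 CPM in controls. With tetracycline DERL2 had 19.7, 16.5 and 19.0 CPM. The MYCi975 libraries of DERL2 all lay below the P493-6 controls, although that fall was not called. DERL3, listed in P493-6 alone, had 29.3, 26.2 and 28.4 CPM with MYCi975, 25.1, 24.9 and 22.6 CPM with tetracycline and 30.1, 26.4 and 28.3 CPM in controls. Its fall with tetracycline, -0.22 ± 0.09 (SE, adjusted p = 0.0251), was lost without control library 1 (-0.17), control library 3 (-0.21) or tetracycline library 3 (-0.17), and under TMM scaling, edgeR and DESeq2. In GENCODE 29, 77.0% of the exon bases of DERL3 also lie in SMARCB1 on the opposite strand. The kit keeps strand, but whether strand was used in counting is not given in the sources used here, so these values are uncertain.

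OS9, a lectin that hands glycoproteins to SEL1L, had 185, 174 and 169 CPM in PC3 with MYCi975, against 168, 174 and 185 CPM in PC3 controls, overlapping groups with a 95% interval of -0.07 to 0.08. In P493-6 OS9 had 84.8, 86.4 and 81.2 CPM with MYCi975, 147, 148 and 152 CPM with tetracycline and 76.6, 81.9 and 71 CPM in controls. Tetracycline libraries lay far above the controls, 0.96 ± 0.05 (SE, adjusted p = 3.97e-19), and the MYCi975 difference of 0.14 ± 0.06 (SE, adjusted p = 0.0617) missed the threshold but passed under TMM scaling and edgeR. Antisense annotation covers 13.5% of the exon bases of OS9.

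SEC24D, a coat protein that selects cargo for export from the ER, had 45.2, 48.4 and 47.6 CPM in PC3 with MYCi975, against 24.2, 27.9 and 24.6 CPM in PC3 controls (0.86 ± 0.07 (SE, adjusted p = 1.55e-21)). P493-6 libraries had 46.4, 50.3 and 47.8 CPM with MYCi975, 43.2, 43.6 and 37.7 CPM with tetracycline and 30.4, 26.3 and 28.6 CPM in controls. It was above control in every treated library, with 0.74 ± 0.07 (SE, adjusted p = 6.08e-11) with MYCi975 and 0.53 ± 0.08 (SE, adjusted p = 2.61e-07) with tetracycline.

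SEC61B, a small subunit of the translocation channel, had 38.8, 38.1 and 41 CPM in PC3 with MYCi975, against 42.6, 39.7 and 37.6 CPM in PC3 controls, overlapping groups. Its values in P493-6 were 84.3, 83.7 and 81.6 CPM with MYCi975, 105, 98.6 and 104 CPM with tetracycline and 91.5, 91.9 and 90.5 CPM in controls. It was slightly higher with tetracycline, 0.17 ± 0.05 (SE, adjusted p = 0.00471). It was slightly lower with MYCi975, -0.13 ± 0.05 (SE, adjusted p = 0.0486), a call lost when any 1 of the 6 libraries was left out (-0.14 to -0.12) and under TMM scaling, edgeR and DESeq2.

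The members' summed level was 13478 ± 288 CPM in PC3 with MYCi975, against 10975 ± 84.7 CPM in PC3 controls (SD, n = 3 each, 31 members listed in all tables). In P493-6 it was 6799 ± 53.5 CPM with MYCi975, 4399 ± 37.7 CPM with tetracycline and 6453 ± 52.4 CPM in controls. In each line the groups did not overlap. Without CALR, HSP90B1, HSPA5, CANX and P4HB, the 5 members with the highest CPM averaged over the 15 libraries, the sum was 4429 CPM with MYCi975 in PC3, against 3592 CPM in controls. In P493-6 it was 2831 CPM with MYCi975, 2068 CPM with tetracycline and 2495 CPM in controls, in the same order as with them. These sums are descriptions, with no test.

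The promoters of the members were searched for 5 motifs in the 300 bases of the RefSeq table around each start (250 before, 50 after), on both strands. A promoter was present for 28 members. The ER stress element ERSE (CCAAT, 9 bases of any kind, CCACG) was found in 25 of the 27305 genes of the table (0.0916%) and in 8 of the 28 members (28.6%). The shorter ERSE-II (ATTGG, 1 base, CCACG) was found in 19 of all genes (0.0696%) and in 3 members (10.7%). Members and elements were both taken from what is known of this response, so the higher shares are no independent result. The 8 members with ERSE were CALR, CANX, CRELD2, ERO1B, HSP90B1, HSPA5, PDIA6 and XBP1, and those with ERSE-II were HERPUD1, HYOU1 and SDF2L1. HSP90B1 and HYOU1 each held 2 sites. Only exact matches of the fixed letters were counted, so an element with a changed letter is missed. A match is a run of letters and says nothing of binding in these cells.

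Selected sites follow with 10 bases on each side where the window allowed, 5′ to 3′ in the orientation of the motif (GRCh38.p14). They are shown because these genes were called in different directions with tetracycline, higher for ERO1B and HERPUD1 and lower for the others, and the capitals mark the fixed letters of the element. The first 5 lines hold ERSE and the last 3 hold ERSE-II.
HSPA5 (chr9:125241381-125241419, minus strand): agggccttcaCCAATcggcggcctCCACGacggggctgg
XBP1 (chr22:28800593-28800631, minus strand): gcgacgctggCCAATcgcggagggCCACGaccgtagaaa
PDIA6 (chr2:10812843-10812881, minus strand): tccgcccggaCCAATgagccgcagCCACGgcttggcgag
CALR (chr19:12938374-12938412, minus strand): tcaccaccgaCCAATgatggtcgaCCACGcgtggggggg
ERO1B (chr1:236282173-236282208, plus strand): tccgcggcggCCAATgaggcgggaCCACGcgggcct
HERPUD1 (chr16:56932015-56932045, plus strand): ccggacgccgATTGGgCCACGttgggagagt
SDF2L1 (chr22:21642104-21642134, minus strand): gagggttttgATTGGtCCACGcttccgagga
HYOU1 (chr11:119057264-119057294, plus strand): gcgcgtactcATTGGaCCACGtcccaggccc

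With tetracycline, 9 of the 11 members with ERSE or ERSE-II were lower and 2 were higher, HERPUD1 and ERO1B, with a median log2 fold change of -0.86. Of the 17 members whose promoters held neither, 6 were lower, 5 were higher and 6 were not called, with a median of -0.05. In PC3 with MYCi975, 8 of the 11 were higher (median 0.25), beside 14 of the 17 without them (median 0.43). In P493-6 with MYCi975, 4 of the 11 were higher and 3 lower (median 0.03), beside 11 higher and 1 lower of the 17 (median 0.25). Over all genes, 41.9% were lower and 36.2% higher with tetracycline, so the counts of the 17 there are near those shares. The share higher in PC3 with MYCi975 was 29%. In P493-6 with MYCi975 10.6% were higher and 18% lower. These counts are descriptions and were not tested. The 6 lower of the 17 with tetracycline were DNAJB11, DNAJC3, MANF, PDIA4, P4HB and EDEM2. All of these but EDEM2 are chaperones, cochaperones or disulfide isomerases. Most members with a motif are chaperones or cochaperones too, so motif and role cannot be told apart in these counts. The E-box CACGTG, a known MYC site, was present in 4 members (14.3%) and in 8.77% of all genes. The core of the ATF4 composite element (TGATG, 1 base, AA) was in HERPUD1 alone (3.57%) and in 4.46% of all genes. The CRE-like core TGACGT was in 5 members (17.9%) and in 9.64% of all genes.

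**Figure D3:**
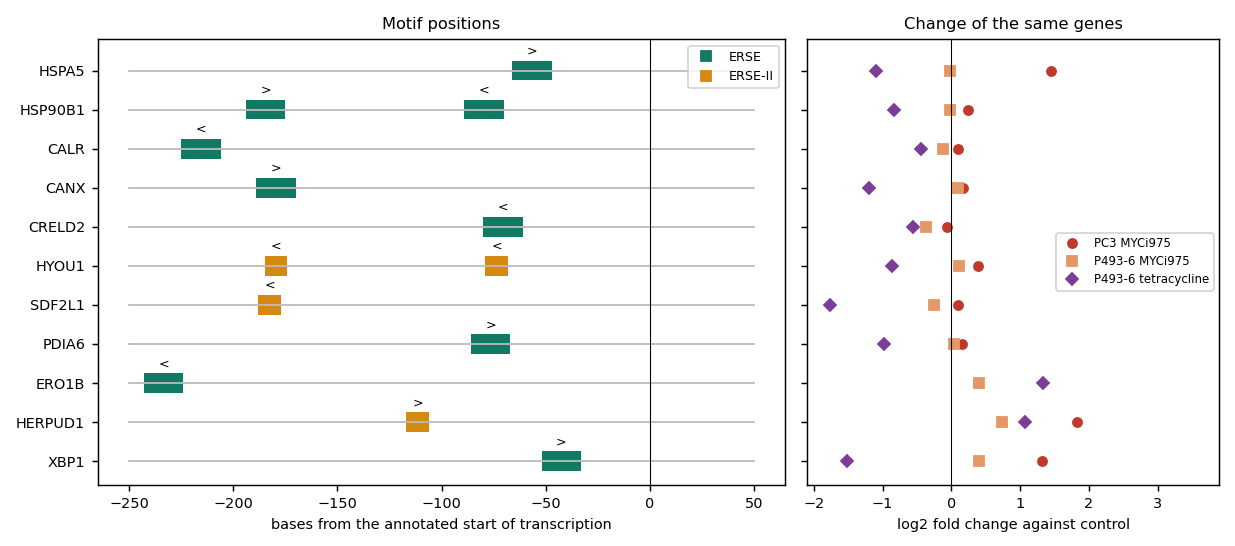
Left: positions of ERSE and ERSE-II motifs (boxes) by bases from the annotated start in the 300 bases searched, for the 11 members that hold one. The mark above a box gives its orientation relative to the gene, and for CANX the start with the motif farthest upstream was used. Right: log2 fold change against control of the same genes, where 9 of 11 lie below 0 with tetracycline and HERPUD1 and ERO1B above.

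The effect of MYCi975 differed between the lines for most members. It was more positive in PC3 than in P493-6 for 18 of 31 members and less positive for 3, where 18.1% and 18.2% of all genes were called. HSPA5 had the largest difference, 1.47 ± 0.05 (SE, adjusted p = 6.7e-25) on the log2 scale, being raised in PC3 with no change called in P493-6. ERN1 (1.26 ± 0.12 SE), HERPUD1 (1.10 ± 0.09 SE) and DNAJB9 (1.00 ± 0.12 SE) followed, all 3 called higher in both lines. The 3 members with a smaller effect in PC3 were EDEM1 (-0.21 ± 0.06 SE), P4HB (-0.16 ± 0.04 SE) and PDIA4 (-0.16 ± 0.04 SE). By role, 10 of 11 chaperones and cochaperones had the more positive effect in PC3, beside 2 of 6 disulfide genes and 3 of 8 degradation genes. For EIF2AK3 and SEC24D no difference was called, with 95% intervals of -0.07 to 0.35 and -0.09 to 0.32. The dose was 8 µM in PC3 and 6 µM in P493-6, so line and dose cannot be told apart.

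**Figure D4:**
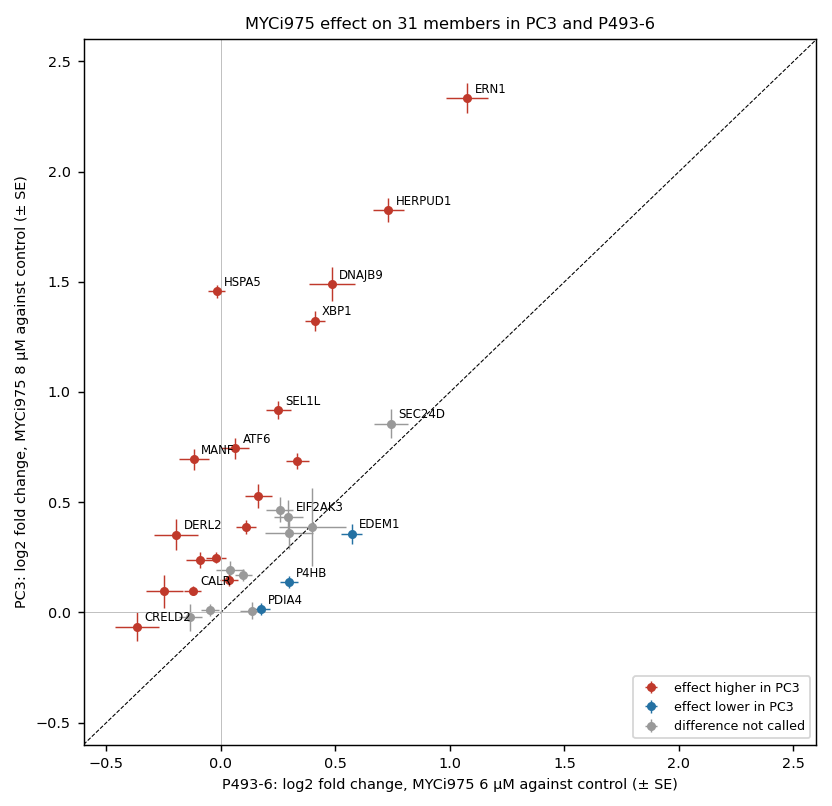
Log2 fold change with MYCi975 against control in P493-6 (6 µM, horizontal axis) and PC3 (8 µM, vertical axis) for 31 members, with bars of 1 SE on each side. The dashed line marks equal effects. The 18 red members have the more positive effect in PC3 and the 3 blue members the less positive one. HSPA5 lies at -0.02 and 1.46 on these axes.

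With MYCi975, 14 members were called higher in both lines: ERN1, EIF2AK3, XBP1, DNAJB9, DNAJC3, CANX, P4HB, DNAJC10, HERPUD1, SEL1L, SYVN1, EDEM1, EDEM2 and SEC24D. Of these 14, 5 were also called higher with tetracycline in P493-6 (EIF2AK3, HERPUD1, SYVN1, EDEM1 and SEC24D) and 5 were called lower (XBP1, DNAJC3, CANX, P4HB and EDEM2). The share of all genes called higher in both lines was not counted, so nothing is read from these counts. The calls of DNAJC3, CANX and EDEM2 with MYCi975 in P493-6, and of DNAJC3 and EDEM2 with tetracycline, were lost in some settings. The 2 comparisons in P493-6 share their control libraries, so their values are given side by side and their likeness was not measured.

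Set directly against tetracycline in P493-6, MYCi975 gave higher levels of 22 of 32 members and lower levels of 6, where 42.3% of all genes were called higher and 33.9% lower. The median was 0.38 for the members and 0.08 for all genes. The groups did not overlap for 30 members (93.8%), where the share over all genes was 76.9%. Of the chaperones and cochaperones, 10 of 11 were higher with MYCi975 than with tetracycline and none was lower. XBP1 had the largest difference, 1.93 ± 0.05 (SE, adjusted p = 5.96e-35), followed by SDF2L1 (1.52 ± 0.12 SE), MANF (1.44 ± 0.08 SE) and CANX (1.30 ± 0.04 SE). The 6 members lower with MYCi975 than with tetracycline were ERO1B (-0.93), SYVN1 (-0.82), OS9 (-0.82), EIF2AK3 (-0.41), HERPUD1 (-0.33) and SEC61B (-0.30). DERL1, with a 95% interval of -0.08 to 0.17, was among the 4 for which no difference was called.

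Markers of several cell types differed between the tetracycline and control libraries. The summed level of the 6 B cell markers was 4256 to 4576 CPM with MYCi975, 10824 to 11240 CPM with tetracycline and 3743 to 3964 CPM in controls. All 6 plasma cell markers (PRDM1, IRF4, SDC1, JCHAIN, MZB1 and TNFRSF17) were listed, with sums of 972 to 996 CPM with MYCi975, 846 to 857 CPM with tetracycline and 1009 to 1032 CPM in controls. With tetracycline SDC1 (-2.15), MZB1 (-1.34) and JCHAIN (-0.29) were lower, while PRDM1 (0.72), TNFRSF17 (0.57) and IRF4 (0.28) were higher on the log2 scale. MZB1 is itself an ER cochaperone of B lineage cells. Markers of other cell types were low in P493-6 and also differed. The stromal COL1A1 and PDGFRB summed to 25.7 to 33.8 CPM with tetracycline, against 10.2 to 12.2 CPM in controls, with 2 of the 4 stromal markers not listed. The T cell markers CD3E and CD2 summed to 9.41 to 12.1 CPM with tetracycline, against 3.93 to 5.72 CPM in controls, with CD3D not listed. CD2 was not listed in the MYCi975 comparison, which has the same controls. It thus passed the low-value filter only through tetracycline libraries, and its part of that rise was built in. The epithelial EPCAM and KRT19 summed to 1.82 to 2.75 CPM with tetracycline, against 11.1 to 12.4 CPM in controls. In PC3 the 5 epithelial markers summed to 1143 to 1231 CPM with MYCi975, against 1408 to 1444 CPM in controls. The part of these differences in the changes of the members was not tested.

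Without MYCi975 the lines already differed in most members, as they did in most genes, so nothing particular to the members is read from these counts. Of 31, 16 were higher and 13 lower in PC3 controls than in P493-6 controls, where 41.8% and 43% of all genes were called. CPM are scaled to each library alone and the tables were filtered separately, so this sets levels across tables. DNAJB11 (1.67 ± 0.05 SE), CALR (1.49 ± 0.03 SE) and PDIA4 (1.31 ± 0.03 SE) were the most in favour of PC3. XBP1 (-1.53 ± 0.05 SE), ERO1B (-1.39 ± 0.16 SE), EIF2AK3 (-1.19 ± 0.07 SE) and SEC61B (-1.17 ± 0.06 SE) were the most in favour of P493-6. The disulfide isomerases PDIA3, PDIA4, PDIA6 and P4HB were each higher in PC3 controls, by 0.64 to 1.31.

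Genes of the same pathways outside the set were counted from lists made by role, and the counts stand against the shares of all genes given above for each comparison. In the list named for the PERK arm, all 18 of the 18 ATF4 targets and effectors were higher in PC3 with MYCi975, with a median log2 fold change of 1.98. Whether PERK acted on these genes was not tested, and the list cannot tell PERK from other inputs to ATF4. In P493-6 13 of 17 were higher and none lower with MYCi975, with a median of 0.58. With tetracycline 9 of 16 were higher and 6 lower, with a median of 0.17. In PC3 the largest were the pseudokinase TRIB3 (3.73 ± 0.04 SE), the growth inhibitor DDIT4 (3.29 ± 0.10 SE) and the stress protein NUPR1 (3.25 ± 0.08 SE). In P493-6 with MYCi975 they were the lipoprotein receptor VLDLR (2.05 ± 0.20 SE), the glutathione-degrading enzyme CHAC1 (1.77 ± 0.20 SE) and the secreted glycoprotein STC2 (1.44 ± 0.13 SE). CHAC1 was not listed in the tetracycline comparison, which has the same controls. It thus passed the low-value filter only through its MYCi975 libraries. Its rise, counted among the 13, was therefore built in by that filter. With tetracycline the largest changes were those of STC2 (-2.11 ± 0.20 SE), the phosphatase subunit PPP1R15A (1.77 ± 0.08 SE) and the oxidase ERO1A (-1.68 ± 0.07 SE). ERO1A was lower with tetracycline, at 30.6 CPM against 99.5 CPM in controls, while its paralog in the set, ERO1B, was higher.

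For ER translocation, glycosylation and vesicle export outside the set, 20 of 34 were higher and 5 lower in PC3 with MYCi975, and 12 of 33 were higher and none lower in P493-6 with MYCi975. With tetracycline 3 of 33 were higher and 24 lower, with a median of -0.42. The largest falls with tetracycline were in the signal recognition particle receptor subunit SRPRB (-1.99 ± 0.07 SE), the retrieval receptor KDELR2 (-1.37 ± 0.08 SE) and the cargo receptor LMAN1 (-1.33 ± 0.05 SE). In PC3 the largest change was that of the retrieval receptor KDELR3 (0.58 ± 0.08 SE) and in P493-6 with MYCi975 that of the translocon-associated SSR1 (0.34 ± 0.05 SE).

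Other ER folding enzymes were split in PC3 with MYCi975, with 7 of 22 higher and 4 lower, and 5 higher and none lower in P493-6 with MYCi975. With tetracycline 4 were higher and 12 lower, with a median of -0.29. The largest of those falls were in the prolyl isomerases FKBP11 (-3.08 ± 0.08 SE) and FKBP7 (-2.22 ± 0.18 SE) and the thioredoxin-like TXNDC5 (-2.21 ± 0.10 SE). FKBP11 averaged 13.2 CPM with tetracycline against 118 CPM in controls. Of other degradation genes, 8 were higher and 5 lower of 21 in PC3, 6 higher and 5 lower in P493-6 under MYCi975, and 5 higher and 8 lower under tetracycline. In PC3 with MYCi975 the changes of these other degradation genes ran from -0.59 to 0.60. VCP, the ATPase that pulls proteins out of the membrane, was among those lower there (-0.56 ± 0.03 SE). Of other sensors and regulators, 6 were higher and 7 lower of 17 in PC3, 2 higher and 4 lower in P493-6 under MYCi975, and 7 higher and 5 lower under tetracycline. With tetracycline the counts of both lists lie near or below the 36.2% of all genes called higher and the 41.9% called lower, and nothing is read from them. In PC3 with MYCi975 the counts higher in these lists and in the folding list lie near the 29% of all genes called higher. Nothing is read from those counts either. Among the sensors and regulators the ER-anchored transcription factor CREB3L1 was 36.5 CPM with tetracycline against 4.33 CPM in controls (2.82 ± 0.11 SE).

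**Figure D5:**
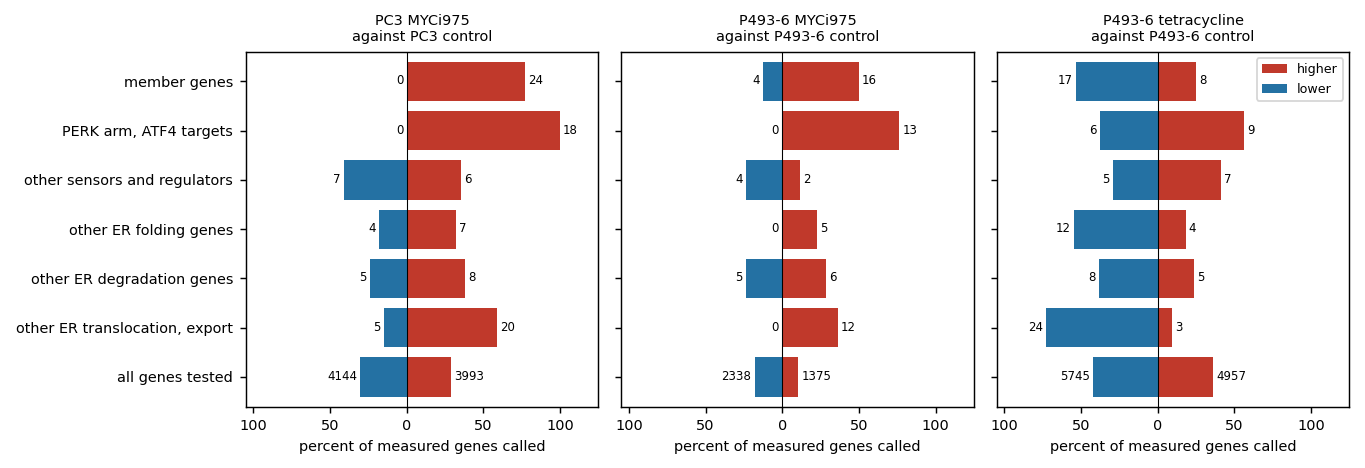
Percent of the measured genes of each list called higher (red, to the right) and lower (blue, to the left) in the 3 comparisons with a control, with the number of genes beside each bar. The bottom row gives all genes tested. The PERK arm list reaches 18 of 18 higher in PC3 with MYCi975, and the translocation and export list has 24 lower with tetracycline.

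Some members share sequence with other genes. In GENCODE 29, 4 members share exon bases with a gene on the same strand (DNAJB11, SYVN1, HSP90B1 and DNAJC10) and 17 with a gene on the opposite strand. After DERL3 the largest share was 25.2% for PDIA6, with ATP6V1C2. PDIA3 and XBP1 have pseudogenes of the same name, so their reads may be split or dropped, and their values carry that uncertainty.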

How the data were processed

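Total RNA (50 ng) of 15 samples was made into strand-specific exon capture libraries (TruSeq RNA Access), per the labels. Per the submitters' processing notes, STAR, HTSeq and edgeR were used with build hg38; their versions and the counting settings were not given in those sources. The authors deposited CPM per library with no further scaling. Whole reads were recovered from the CPM of every library within 0.001 reads, with library totals that are whole numbers. Further columns, per the file headers, are the authors' log2 fold changes and log2 mean CPM, a likelihood ratio score, p-values and a gene width; none of them enters the results. The same control values stand in both P493-6 tables.

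Each comparison was fitted with limma 3.58.1 (trend and robust settings, R 4.3.3) on log2(CPM + 1) over all genes of its table, with Benjamini-Hochberg adjustment over all of them and a call at adjusted p below 0.05, two-sided. The spread of a gene is moderated toward that of all genes, so p-values rest on more than its own libraries. The direct contrast of MYCi975 with tetracycline used 9 libraries and 12860 genes. The difference between the lines (line, treatment and their interaction) used 12 libraries and 11240 genes. Alternatives were a pseudocount of 0.1, TMM, a mean CPM of at least 5, edgeR 4.0.16 and DESeq2 1.42.0 on recovered reads, leaving out each library, a replicate block and all 9 P493-6 libraries in 1 fit. The fits were tested on simulated data. Promoters came from RefSeq (GRCh38.p14), exon overlaps from GENCODE 29. The members and lists were chosen with earlier results of these data known. Named genes were all members, MYC and, per list and comparison, at most the 3 called genes with the largest absolute change; cell type markers were named as whole lists or as those listed, outside that rule. Protein sequences were not analysed here, and 1 planned marker gene is not reported here. No usable gene length was at hand, so CPM of different genes are shares of reads and not of transcripts.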

Additional observations from a re-analysis of the deposited data

Results flagged for a closer look

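For 21 members the effect of MYCi975 differed between PC3 and P493-6 by the interaction term of line and treatment (limma, adjusted p below 0.05), and each is given here as the PC3 effect minus the P493-6 effect on the log2 scale. Among sensors and transcription factors the difference was 1.26 for ERN1, 0.68 for ATF6 and 0.91 for XBP1. Among chaperones and cochaperones it was 1.47 for HSPA5, 1.00 for DNAJB9, 0.81 for MANF, 0.36 for DNAJC3 and 0.34 for SDF2L1. It was 0.33 for DNAJB11, 0.30 for CRELD2, 0.28 for HYOU1, 0.27 for HSP90B1 and 0.22 for CALR. Among disulfide genes it was 0.35 for DNAJC10, 0.12 for PDIA6, -0.16 for PDIA4 and -0.16 for P4HB. Among degradation genes it was 1.10 for HERPUD1, 0.67 for SEL1L, 0.55 for DERL2 and -0.21 for EDEM1.

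Groups of 3 libraries are too small to single out a library as standing apart. The difference for PDIA6 lost its call without any PC3 control library, PC3 MYCi975 library 1 or 2, P493-6 control library 2 or 3, or P493-6 MYCi975 library 2 or 3 (0.10 to 0.12), and with TMM scaling (0.083), edgeR (0.083) or DESeq2 (0.10). That of CRELD2 lost its call without PC3 control library 2 or 3, PC3 MYCi975 library 1 or 2, P493-6 control library 2 or 3, or P493-6 MYCi975 library 3 (0.25 to 0.29), and with TMM scaling (0.27), edgeR (0.28) or DESeq2 (0.30). That of SDF2L1 lost its call without PC3 control library 3, PC3 MYCi975 library 3, P493-6 control library 3 or P493-6 MYCi975 library 2 (0.26 to 0.30), and with DESeq2 (0.33). The lines received different doses, 8 µM in PC3 and 6 µM in P493-6, so line and dose cannot be told apart.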

How the results depend on the processing

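No called value changed sign under any setting run. In 5 of the 6 comparisons the counts of members called higher and lower stayed within 1.5 times under every setting run. The exception was P493-6 with MYCi975 against control. There 4 members were called lower, against 1 with TMM scaling, 1 with edgeR, 1 with DESeq2, 2 with the replicate block and 2 in the fit of all 9 libraries, and 1 to 3 when a library was left out (1 without MYCi975 library 2, and 2 without control library 2 or 3). The 16 called higher became 12 to 14 when a library was left out. Over all genes of that comparison, 2338 were called lower and 1177 by DESeq2. The cause was not tested.

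Leaving out a library gave 24 to 25 members higher and 0 lower in PC3, 8 higher and 15 to 17 lower with tetracycline, 20 to 23 higher and 6 lower for MYCi975 against tetracycline, and 15 to 18 higher and 3 to 4 lower for the difference between the lines. Same-numbered libraries did not deviate together (correlations of -0.112 to 0.056). Such correlations cannot tell whether same-numbered libraries were handled together, and the main fits did not pair them. With the replicate block, 4 calls with MYCi975 in P493-6 missed the threshold, those of DNAJC3 (adjusted p = 0.0534), CALR (0.0716), CANX (0.151) and SEC61B (0.0828). The same held for PDIA6 in the difference between the lines (0.0909) and SEC24D between the controls (0.0558), and the block changed no other call of a member. In the fit of all 9 libraries the calls of DNAJC3, SDF2L1 and SEC61B with MYCi975 were lost. TMM scaling shifted the median of all genes by -0.10 to 0.08. A member at 1 CPM rests on about 8 to 16 reads, so ERO1B in PC3 is imprecise.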
